A study of Mus musculus with 6 samples.

Results

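The OAS family is described here by 8 genes, Oas1a, Oas1b, Oas1c, Oas1g, Oas2, Oas3, Oasl1 and Oasl2, out of 35440 gene names on the array. These members were chosen by the difference between GapmeR labels on these same arrays, so their own differences are given as a description. No p-value of a single member is printed, and counts of members past p limits are a description too. They are covered by 11 of 55681 probes, and 10 of the 11 passed the filter on dim probes, which asks for a mean of 50 or more under 1 of the labels. Every member kept a probe. A probe near background under 1 label, such as that of Oas1g, passed through the other label.

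Proteins of the OAS family sense double-stranded RNA and, where they are active enzymes, join ATP into oligoadenylates with 2′-5′ links (2-5A). These oligoadenylates act as second messengers in the defence against viruses. The genes are induced by interferon in fibroblasts and many other cells, and 2-5A is removed by phosphodiesterases.

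The arrays profiled the mouse fibroblast line 3T3 at 48 h of treatment with 50 nM (2 × 50 nM in the supplementary documentation) of either GapmeR Ntep or GapmeR control. GapmeRs are antisense oligonucleotides that recruit RNase H, and this one is directed at the lncRNA Ntep. There were 6 Agilent 1-colour arrays on 1 slide, 3 per GapmeR, from 3 experiments with 1 array of each label. All cultures received a GapmeR, so untreated cells form no group.

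Between 43.7% and 53.3% of probes were well above background on an array, and no spot was saturated. Signals are quantile normalised intensities, differences are log2 of GapmeR Ntep minus log2 of GapmeR control, and every set of 3 values runs over experiments 1, 2 and 3. Of the 10 fibroblast markers, 9 were well above background on all 6 arrays, among them Col1a1, Col1a2, Vim and Thy1. Lum was well above background on 1 array of GapmeR control alone.

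The targeted transcript was examined first. The Ntep probe (A630089N07Rik) read 472, 91.5 and 226 on the arrays labelled GapmeR Ntep and 271, 272 and 361 on those labelled GapmeR control. In experiment 1 the array labelled GapmeR Ntep was the higher of its pair, and in the other experiments it was the lower. In the fit the labels differed by -0.48, less than the SE of 0.58 (limma adjusted p = 0.632), and this became 0.13 when GapmeR Ntep replicate 2 was left out and -1.09 when GapmeR Ntep replicate 1 was left out (limma adjusted p = 0.252, range over the alternatives 0.252 to 0.842). The exact two-sided permutation p was 0.7. With 0.1 the least that 6 arrays allow when shuffled without regard to experiment, it could not fall under 0.05 and decides nothing. Because the Ntep signals of the labels overlapped, arrays are named by their labels, as Ntep-labelled or control-labelled, and every direction refers to the label.

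All 8 members had lower mean signals on the Ntep-labelled arrays, by the brightest probe of each. Where all 6 arrays measured the gene, the log2 difference lay between -0.25 (Oas1b) and -2.48 (Oas2). Oas1g was not well above background on any Ntep-labelled array. The median over the 8 members was -1.48, beside 0.06 over all 30990 tested probes. Past a 2-fold change with limma's unadjusted p below 0.01, 3 of the 8 members were lower, where 5.06% of all tested probes were lower and 3.08% higher. At an adjusted p under 0.05, 1 member was lower (Oas1g, measured on the control-labelled arrays alone), where 2.97% of all tested probes were lower and 1.77% higher. With the experiments as blocks, 5 members were lower at either limit, where 2081 and 1857 of all 30990 tested probes were lower. The count of 3 became 1 without any 1 of GapmeR control replicates 1, 2 and 3, where the count over all tested probes went from 1567 to 1492, 986 and 1130. The count of 1 became 2 without GapmeR Ntep replicate 1, and 0 without GapmeR Ntep replicate 3 or any 1 of the GapmeR control replicates. Over all tested probes that count went from 921 to 364 without GapmeR Ntep replicate 1, 0 without GapmeR Ntep replicate 3, and 104, 0 and 5 without GapmeR control replicates 1, 2 and 3. Every Ntep-labelled array was below every control-labelled array for 5 members, a pattern held by 15.2% of all tested probes. The members were chosen on this contrast, so nothing is read from these counts.

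**Figure D1:**
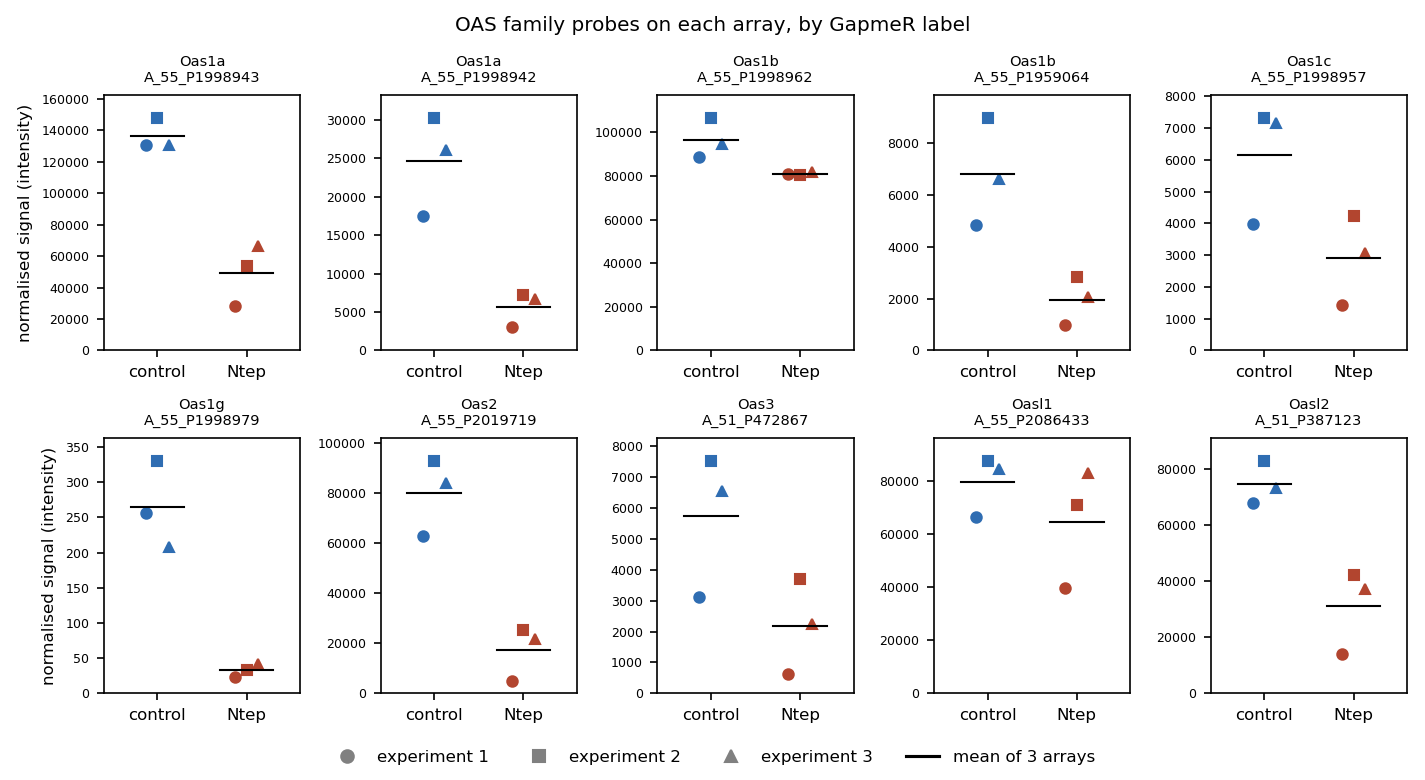
Normalised signal (intensity, linear axis from 0) of the 10 tested OAS family probes on each array, by GapmeR label; circles, squares and triangles are experiments 1, 2 and 3, and bars are means of 3 arrays. Ntep-labelled points lie below all control-labelled points except for Oas1c, Oas3 and Oasl1, and the Ntep-labelled array of experiment 1 is the lowest in 9 of 10 panels.

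Oas1a encodes an active 2-5A synthetase, and both of its probes are on chromosome 5. In mm9, the build of the array files, A_55_P1998943 lies at chr5:121346735-121346794 and A_55_P1998942 at chr5:121348338-121348397. The brighter probe, A_55_P1998943, read 27999.7, 53959 and 66587 on the Ntep-labelled arrays and 130571, 147802 and 130773 on the control-labelled arrays. The labels did not overlap, and the control-labelled arrays lay close together. Means were 49515 ± 19674 on Ntep-labelled and 136382 ± 9890.2 on control-labelled arrays (± SD, n = 3), a log2 difference of -1.55 (SE 0.34). The second probe, A_55_P1998942, read 3036, 7271 and 6660.5 against 17438, 30254 and 26142. Its labels did not overlap either, and its log2 difference was -2.18 (SE 0.40). Both probes were lowest in experiment 1.

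Oas1g encodes another active synthetase of the Oas1 group. Probe A_55_P1998979 (chr5:121326271-121326330) read 23.8, 33.1 and 42.4 on the Ntep-labelled arrays and 257, 330.3 and 208 on the control-labelled arrays. It was well above background on all 3 control-labelled arrays and on no Ntep-labelled array, so its level there was not measured. With each Ntep-labelled signal raised to the lowest signal of any probe well above background on its array, Oas1g was 5.03-fold lower there. That lowest signal is not a detection limit. Oas1d exceeded it on all 3 Ntep-labelled arrays but was well above background on 2 of them. Its fitted log2 difference of -3.01 (SE 0.29) rests on signals that were not well above background, though none was below the floor of 20. It was -2.38 with a floor of 50 and -1.31 with normexp background correction. The 5.03-fold value is therefore no bound, and it applies to the quantile normalised signals only. The second probe, A_55_P1998977, lies at chr5:121326151-121326210 and was not well above background on any array.

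Oas1b is the mouse gene known for resistance to flaviviruses. Its probes differed from each other. A_55_P1959064 (chr5:121273890-121273949) read 981, 2833 and 2050.4 on the Ntep-labelled arrays and 4835, 8972 and 6632 on the control-labelled arrays. The labels did not overlap, with a log2 difference of -1.89 (SE 0.45). A_55_P1998962 (chr5:121274109-121274168), the brighter probe, read 81027, 80304.5 and 81847 against 88813, 106649 and 94689. These labels did not overlap either, but the log2 difference was only -0.25 (SE 0.16), and it was -0.01 with 75th percentile scaling. The Ntep-labelled signals of this probe lay close together, whereas those of the other Oas1b probe were lowest in experiment 1.

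The probes of Oas1b also differed in sequence. Stretches of 16 bases of the brighter probe were present in promoter windows of 78 other genes in the RefSeq table, a sharing reached by 223 of all 55681 probes (0.4%). The dimmer Oas1b probe shared no 16-base stretch with a promoter window of another gene. It shared such a stretch with 1 other probe of the array, and the brighter probe with 5. The most shared stretch, bases 20 to 35 of A_55_P1998962, was held by promoter windows of 44 genes and by 4 probes of the array, its own included. It is shown because the gene's level rests on this probe when the brightest is taken.
A_55_P1998962: ctgaacctgtaagcca
Whether transcripts of other genes contribute to this signal was not tested. With the mean of both probes, Oas1b had a log2 difference of -1.07.

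Oas1c is a further Oas1 paralogue. Its probe (A_55_P1998957, chr5:121250208-121250267) read 1433, 4240 and 3075 on the Ntep-labelled arrays and 3988, 7316 and 7149 on the control-labelled arrays. The labels overlapped, because the Ntep-labelled array of experiment 2 was above the control-labelled array of experiment 1, while each experiment on its own was lower, by -1.48, -0.79 and -1.22. The log2 difference was -1.16 (SE 0.47), and -0.71 without GapmeR Ntep replicate 1. This probe shares a 16-base stretch with probes of 3 other genes, Oas1d among them.

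Oas2 and Oas3 encode the larger synthetases, built from repeated OAS units. Oas2 (A_55_P2019719, chr5:121180343-121180402) read 5100.4, 25305 and 21707 on the Ntep-labelled arrays and 62674, 92677 and 83993 on the control-labelled arrays. Every Ntep-labelled array was below every control-labelled array, and the Ntep-labelled array of experiment 1 was far below the other 2. Means were 17371 ± 10778 on Ntep-labelled and 79781 ± 15438 on control-labelled arrays (± SD, n = 3), with a log2 difference of -2.48 (SE 0.63). Without GapmeR Ntep replicate 1 the difference was -1.72.

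Oas3 (A_51_P472867, chr5:121203598-121203657) read 633, 3689 and 2239 on the Ntep-labelled arrays and 3122, 7516 and 6549 on the control-labelled arrays. The labels overlapped, since the control-labelled array of experiment 1 was below the Ntep-labelled array of experiment 2. Within experiments the difference was -2.30, -1.03 and -1.55. Over all arrays it was -1.63 (SE 0.71), and it was -0.89 without GapmeR Ntep replicate 1.

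The OASL proteins carry ubiquitin-like domains. Oasl2 keeps synthetase activity, and its probe (A_51_P387123, chr5:115362168-115362227) read 14218, 42132.5 and 37365 on the Ntep-labelled arrays and 67874, 82958.5 and 73380.0 on the control-labelled arrays. The labels did not overlap. The log2 difference was -1.40 (SE 0.43), and -0.89 without GapmeR Ntep replicate 1.

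Oasl1 lacks synthetase activity and is known to repress translation of Irf7. Its probe (A_55_P2086433, chr5:115387861-115387920) read 39642, 70808 and 82792 on the Ntep-labelled arrays and 66417, 87437 and 84287.5 on the control-labelled arrays. The labels overlapped, and experiment 3 differed by only -0.03, against -0.74 and -0.30 in experiments 1 and 2. The log2 difference of -0.36 (SE 0.32) was close to its SE, and it was -0.04 without GapmeR Ntep replicate 1. Without Oas1g, not measured on the Ntep-labelled arrays, the order of log2 differences by the brightest probe was Oas2, Oas3, Oas1a, Oasl2, Oas1c, Oasl1 and Oas1b. With the mean over probes Oas1a (-1.87) came before Oas3 and Oas1b (-1.07) before Oasl1. Without GapmeR Ntep replicate 1, Oas1a (-1.17) came before Oas3 (-0.89) and Oas1b (-0.25) before Oasl1 (-0.04). Oas1a also came before Oas3 with normexp background correction (-1.70 and -1.49) and without GapmeR control replicate 2 (-1.50 and -1.39) or 3 (-1.568 and -1.485). Without GapmeR Ntep replicate 2, Oasl2 (-1.698) came before Oas1a (-1.668). From Oas3 to Oas1c, neighbours in the order by the brightest probe lay closer to each other than the SE of either.

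Experiments differed in size. Each of the 10 tested member probes was lower in all 3 experiments, and 9 had their most negative difference in experiment 1, as did 42.4% of all tested probes. The median over the members was -2.24 in experiment 1 and -1.10 in experiment 3, with experiment 2 the nearest to 0. Over all tested probes it was 0.03, 0.05 and 0.03. The Ntep-labelled array of experiment 1 was the lowest of the 6 arrays for 9 of 10 member probes and for 26.4% of all tested probes. The control-labelled array of experiment 1 was in turn the lowest control for 9 of 10 member probes, against 39.7% of all. Without GapmeR Ntep replicate 1 the median over the members was -0.89. Experiment 1 is also the experiment whose Ntep probe went against its label, and the part of the Ntep level in these differences was not tested.

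**Figure D2:**
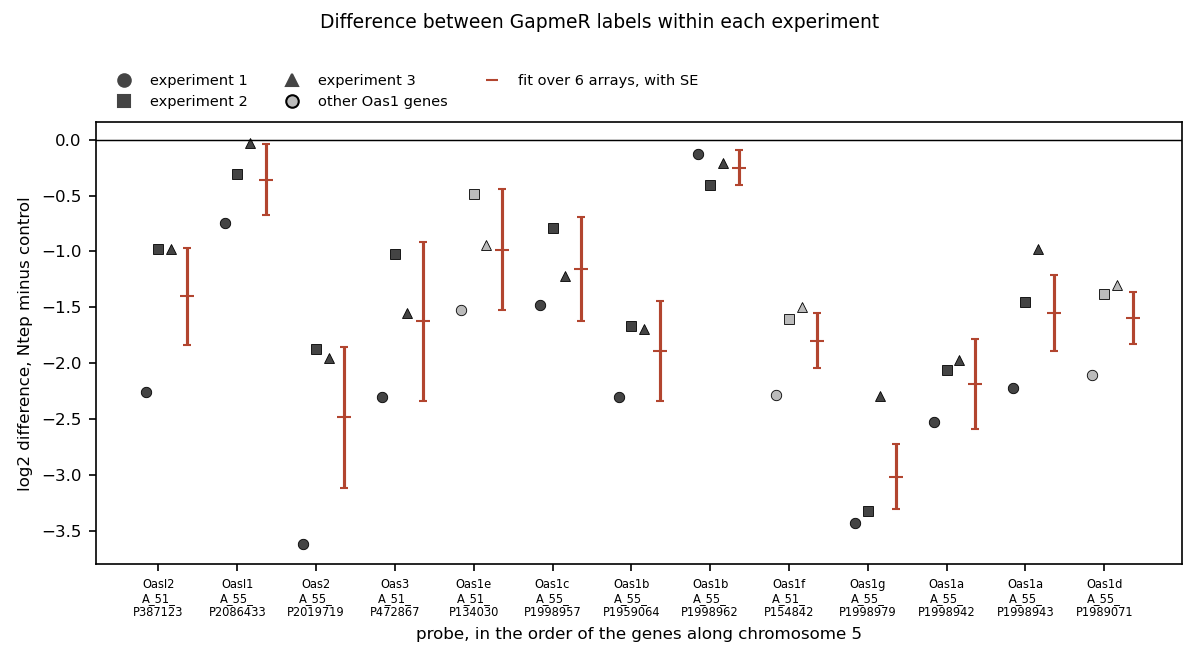
Log2 difference (Ntep-labelled minus control-labelled) of each tested probe of the members (dark) and of the other Oas1 genes (light) in experiments 1 to 3, with the fit over 6 arrays and its SE in red, in gene order along chromosome 5. All points of single experiments lie below 0, and those of experiment 1 are the most negative except for Oas1b probe A_55_P1998962.

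The members form a pair of groups on chromosome 5. In the RefSeq table (GRCm38.p6), Oasl2 and Oasl1 are next to each other, and Oas2, Oas3, Oas1e, Oas1c, Oas1b, Oas1f, Oas1h, Oas1g, Oas1a and Oas1d follow in that order with no other protein-coding gene between. The neighbours of both groups, the nearest 2 protein-coding genes with a tested probe on each side, were added after the values of the members had been seen. Of these 8 genes, 5 were lower and 3 higher, with log2 differences from -1.45 to 0.61. None passed limma's adjusted p of 0.05 (0.206 to 0.850), none had an unadjusted p under 0.05, and none passed the methods' t-test after adjustment. Beyond Oas1d, Ptpn11 differed by -0.08 (SE 0.18) and Rpl6 by -0.05 (SE 0.15). The most negative neighbour, Cfap73, was well above background on 1 array.

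The 4 Oas1 genes outside the members were Oas1d, Oas1e, Oas1f and Oas1h. These genes and the pathway lists below were chosen with earlier results of these data known, so their counts are a description. Oas1f read 6007, 9377 and 10509 on the Ntep-labelled arrays and 29312, 28513 and 29670.3 on the control-labelled arrays, and Oas1d read 78.4, 88.6 and 82.8 against 337, 230.2 and 204. For both genes the labels did not overlap, and 2 of the 3 Ntep-labelled signals of Oas1d were well above background. Oas1f fell by 1.80 (SE 0.25, limma adjusted p = 0.0278) and Oas1d fell by 1.59 (SE 0.23, limma adjusted p = 0.0288), each lower in 3 of 3 experiments. The Oas1d probe shares a 16-base stretch with the brighter probe of Oas1c, and the part of Oas1c transcripts in its signal was not tested. With normexp background correction Oas1d was -0.83, under a fold of 2. Both calls were lost without the filter on dim probes and in the methods' t-test, where the adjusted p was 0.0672 for Oas1f (range over the alternatives 0.0133 to 0.13) and 0.0695 for Oas1d (range 0.0197 to 0.13). Oas1e differed by -0.98 (SE 0.54, limma adjusted p = 0.312), with overlapping labels, and by -0.43 without GapmeR Ntep replicate 1. Both probes of Oas1h were not well above background on any array. The call of 2 genes, where 2.97% of all tested probes were called lower, became 1 without GapmeR Ntep replicate 1. It became 0 without GapmeR Ntep replicate 3 or any 1 of the GapmeR control replicates.

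Promoter windows of the members were compared. The RefSeq table (GRCm38.p6) holds windows for 6 of the 8 members; Oas1b and Oas2 have none. The core of the interferon-stimulated response element, GAAA and again GAAA with 2 bases of any kind between, was searched on both strands of the 250 bases before the start. It was present in the windows of Oas1a, Oas1c and Oas1g (2 overlapping matches each) and Oas3 (1 match), and in 978 of all 32851 windows (2.98%). The windows of Oasl1 and Oasl2 held no match, nor did those of Oas1f and Oas1h. A match describes the letters only, and no factor's binding was measured. The stretches of 60 bases around the matches follow, on the strand of the gene, with the motif in capitals.
Oas1a, chr5:120907526-120907585, minus strand: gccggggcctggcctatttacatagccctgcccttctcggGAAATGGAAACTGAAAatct
Oas1g, chr5:120887614-120887673, minus strand: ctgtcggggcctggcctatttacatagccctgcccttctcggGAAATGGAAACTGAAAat
Oas1c, chr5:120812591-120812650, minus strand: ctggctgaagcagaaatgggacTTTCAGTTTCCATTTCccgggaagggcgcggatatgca
Oas3, chr5:120777700-120777759, minus strand: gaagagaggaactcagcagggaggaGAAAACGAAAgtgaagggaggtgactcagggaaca

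The matches of Oas1a began 20 and 14 bases before the start, those of Oas1g 18 and 12, those of Oas1c 114 and 108, and that of Oas3 75. Oas1a and Oas1g were identical over the 54 bases that end with the motif. The run of 16 bases made by the overlapping matches, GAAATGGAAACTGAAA, was the same in Oas1a and Oas1g, and Oas1c held its reverse complement, TTTCAGTTTCCATTTC. In all, 7 of 32851 windows (0.0213%) held this run on either strand, and they belong to Oas1a, Oas1c, Oas1g, Apol9a and Apol9b.

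Apol9a and Apol9b were looked up after the run had been found. The brighter Apol9a probe read 91306.5, 120395 and 102075 on the Ntep-labelled arrays and 177986, 142932 and 129699 on the control-labelled arrays. Its labels did not overlap, and its log2 difference was -0.52 (SE 0.20, limma adjusted p = 0.186). The Apol9b probe differed by -0.54 (SE 0.21, limma adjusted p = 0.184), and the dimmer Apol9a probe by -0.39 (SE 0.32, limma adjusted p = 0.484).

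The turnover and action of 2-5A were covered by 4 genes outside the members. None passed a fold change of 2 and an adjusted p of 0.05 in limma or in the methods' t-test, and 1 of 4 (Akap7) had an unadjusted p under 0.05. The list's median difference was 0.65, with 1 gene lower and 3 higher, and within experiments the median was 0.04, 0.09 and 1.01. Enpp1 enters these medians and the count of 3, though it was well above background on 1 of the 6 arrays.

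Akap7, a phosphodiesterase that can cleave 2-5A, read 1877, 3188 and 2285 on the Ntep-labelled arrays against 4594, 4840 and 5229. Its labels did not overlap, with a log2 difference of -1.03 (SE 0.24, limma adjusted p = 0.0622). Of its other tested probes, A_55_P2110032 differed by -0.80 (SE 0.20) without overlap and A_55_P2174743 by -0.79 (SE 0.94) with overlap, lower in 1 of 3 experiments. With experiments as blocks Akap7 was called lower (adjusted p = 0.0483), and the adjusted p ranged from 0.0403 to 0.208 over the alternatives. Its call at the unadjusted limit was lost without any 1 array but GapmeR Ntep replicate 2, and it was gained after adjustment without that array. Pde12, another 2-5A phosphodiesterase, read 2908, 1107 and 2678 against 1233, 851 and 1045, with a log2 difference of 0.99 (SE 0.41, limma adjusted p = 0.202). Its labels overlapped, and without GapmeR Ntep replicate 2 its adjusted p was 0.0455, within a range of 0.0455 to 0.456 over the alternatives. Abce1, an ATPase of ribosome recycling, differed by 0.31 (SE 0.20, limma adjusted p = 0.378), by 0.15 without GapmeR Ntep replicate 3 and by 0.53 with 75th percentile scaling. Enpp1, counted among the higher genes, was well above background on the Ntep-labelled array of experiment 3 alone.

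Of 10 other sensors and effectors of foreign nucleic acids, 8 had lower and 2 higher means on the Ntep-labelled arrays, with a median of -1.64. In limma, 6 were lower past a fold of 2 and an unadjusted p of 0.01, and 4 at an adjusted p of 0.05. Of all tested probes, 5.06% and 2.97% were lower at these limits. By the brightest probe of each sensor, none was higher at either limit, at an unadjusted p under 0.05 or in the methods' t-test. The 4 lower calls also became 0 in the methods' t-test and without the filter on dim probes. Zbp1, a sensor of Z-form nucleic acid, read 2209, 5114 and 5230.1 against 46822.5, 40221 and 40267, without overlap. Zbp1 fell by 3.44 (SE 0.37, limma adjusted p = 0.022) and was lower in 3 of 3 experiments. Tlr3, the endosomal receptor for double-stranded RNA, read 23.3, 55.6 and 77.2 against 869, 858 and 549, and was well above background on 1 of the 3 Ntep-labelled arrays. Its fitted difference of -4.00 (SE 0.48, limma adjusted p = 0.0243) was -2.26 with normexp background correction.

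Ifih1, a cytosolic sensor of long double-stranded RNA, fell by 2.12 (SE 0.30, limma adjusted p = 0.0281). Eif2ak2, the kinase PKR, fell by 1.67 (SE 0.25, limma adjusted p = 0.0301, range over the alternatives 0.0155 to 0.139). Both were lower in 3 of 3 experiments, without overlap between labels. Dhx58 differed by -2.86 (SE 0.59, limma adjusted p = 0.0511) and the brighter Adar probe by -1.61 (SE 0.33, limma adjusted p = 0.0511), while the other Adar probe differed by 0.07. With experiments as blocks both were called (adjusted p = 0.031 for Dhx58 and 0.0412 for Adar), and over the alternatives the adjusted p ranged from 0.0274 to 0.182 for Dhx58 and from 0.0261 to 0.182 for Adar. Rigi differed by -1.22 (SE 0.33), Sting1 by -0.48 (SE 0.18), Mavs by 0.50 (SE 0.22) and Cgas, a nucleotidyltransferase related to the OAS enzymes, by 0.27 (SE 0.20), none past adjustment in this fit. Rigi was called with trend and without GapmeR Ntep replicate 2 (adjusted p = 0.0442 and 0.0493, range over the alternatives 0.0442 to 0.263). Cgas was 0.15 without GapmeR control replicate 3 and 0.43 without GapmeR control replicate 1. A second Cgas probe, A_55_P2141241, differed by 0.81 (SE 0.33, limma unadjusted p = 0.0466, limma adjusted p = 0.1925), with overlapping labels. The mean over the probes of Cgas gave 0.45. The 4 calls became 0 without GapmeR Ntep replicate 3 or any 1 of the GapmeR control replicates. Without GapmeR Ntep replicate 1 the count was 4, with Eif2ak2 lost (limma adjusted p = 0.0679) and Adar gained (limma adjusted p = 0.0473).

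**Figure D3:**
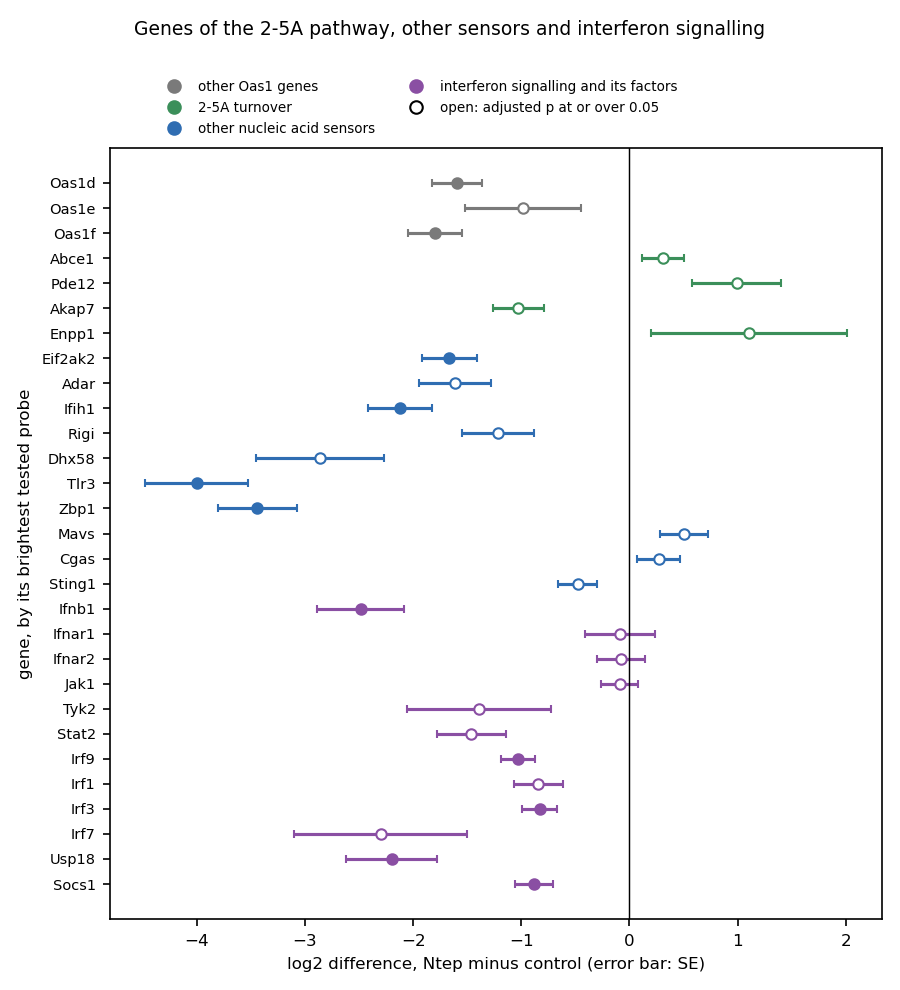
Log2 difference (Ntep-labelled minus control-labelled, error bar SE, 3 arrays per label) of the genes of the 4 pathway lists, by the brightest tested probe, with filled points at an adjusted p under 0.05 whatever the fold. All filled points of these lists are below 0, Zbp1 lies at -3.44, Tlr3 (well above background on 1 of 3 Ntep-labelled arrays) has no exact place, and Ifnar1, Ifnar2 and Jak1 are open.

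In interferon signalling, all 12 listed genes had lower means on the Ntep-labelled arrays, with a median of -0.96, although 3 of them changed sign in other settings. Ifnar2 and Jak1 were higher by 0.02 and 0.09 with 75th percentile scaling, and Ifnar1 by 0.06 with the mean over its probes. Without GapmeR Ntep replicate 1, Ifnar1 was higher by 0.20 and Ifnar2 by 0.10, and Ifnar1 was higher by 0.02 and 0.01 without GapmeR control replicates 2 and 3. In limma, 4 were lower past a fold of 2 and an unadjusted p of 0.01 (2 without GapmeR control replicate 1), and 3 at an adjusted p of 0.05. Of all tested probes, 5.06% and 2.97% were lower at these limits. Ifnb1, the ligand, read 479, 1058 and 862 against 6055, 4440 and 2857, without overlap. It fell by 2.49 (SE 0.40, limma adjusted p = 0.0335) and was lower in 3 of 3 experiments. Its receptor chains differed by -0.09 (Ifnar1, SE 0.32) and -0.08 (Ifnar2, SE 0.22), and the receptor's kinase Jak1 by -0.09 (SE 0.18). None of these 3 passed adjustment.

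Irf9, a transcription factor of the interferon response, read 22053, 24429.9 and 22053 against 49908, 45573 and 44520.3, without overlap. Irf9 fell by 1.03 (SE 0.16, limma adjusted p = 0.03), and Usp18, a feedback inhibitor of the receptor, fell by 2.20 (SE 0.42, limma adjusted p = 0.0436). Both were lower in 3 of 3 experiments. With 75th percentile scaling Irf9 was -0.85 and lost its call (adjusted p = 0.0602, range over the alternatives 0.0112 to 0.142). Usp18 lost its call without the filter on dim probes and in the methods' t-test (adjusted p = 0.126 and 0.114, range 0.021 to 0.163), as did Ifnb1 (0.0955 and 0.092, range 0.0174 to 0.144). Irf3 and Socs1 passed the adjusted p (0.043 and 0.0481) at differences under a fold of 2, -0.83 and -0.88. Both lost this without any 1 of the 6 arrays and with 75th percentile scaling, and over the alternatives the adjusted p ranged from 0.0169 to 0.18 for Irf3 and from 0.0228 to 0.183 for Socs1. Stat2 (-1.46, SE 0.32, limma adjusted p = 0.056), Irf7 (-2.30, SE 0.80, limma adjusted p = 0.146) and Tyk2 (-1.39, SE 0.67, limma adjusted p = 0.258) were not called. Without GapmeR Ntep replicate 1, Irf7 was -1.40 and Tyk2 -0.82, and with normexp background correction Tyk2 was -0.88.

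With experiments as blocks, 6 of the 12 were called past a fold of 2, with Stat2 (adjusted p = 0.0399), Irf7 (adjusted p = 0.0443) and Tyk2 (adjusted p = 0.0337) added. In that fit, 1857 of all 30990 tested probes were lower past the same limits. Over the alternatives the adjusted p ranged from 0.0255 to 0.2 for Stat2, from 0.0443 to 0.359 for Irf7 and from 0.0337 to 0.535 for Tyk2. The 3 calls became 1 without GapmeR Ntep replicate 1, and 0 without GapmeR Ntep replicate 3 or any 1 of the GapmeR control replicates.

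Among genes well above background on all 6 arrays, the 10 whose profile over the arrays was most like the median of the members were Phykpl, Lenep, Tgfbr3, Vps13b, Nsmf, Chtf18, Galk1, Pgm2l1, Col4a2 and Ocrl. They came from 16476 probes. Their root mean square deviation from the centred median profile was 0.06 to 0.11 on the log2 scale, with Pearson's r from 0.991 to 0.998 over the 6 arrays, which share their label and experiment. Phykpl, the nearest, read 427, 1123 and 981 on the Ntep-labelled arrays and 1397, 2214 and 2169 on the control-labelled arrays. None of the 10 belongs to the lists of pathway genes.

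Markers of other cell types were set beside the members. Of 12 macrophage markers, 6 were tested, 4 with higher and 2 with lower means on the Ntep-labelled arrays. Their summed signal was 75870.0, 43054 and 50900.1 on the Ntep-labelled arrays and 28137.5, 20663.5 and 21897 on the control-labelled arrays. Cd68 was called higher, by 1.21 (SE 0.17, limma adjusted p = 0.0287), and with experiments as blocks Csf1r, Cd14 and Itgam were called higher too. Cd68 was not called in the methods' t-test. Second tested probes gave 0.68 against 1.21 for Cd68, 0.44 against 3.19 for Csf1r and -0.03 against 1.26 for Itgam. The 2 with lower means were Lyz2 (-0.18) and Mertk (-0.33). The remaining listed markers, Ptprc, Adgre1, Fcgr1, Mrc1, Cd163 and Spi1, were not well above background on any array.

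The 5 tested of 9 dendritic and lymphoid markers differed by 0.26 to 0.87, both tested endothelial markers of 4 by 0.38 and 0.41, and 4 epithelial markers by -0.02 to 1.56, with no call after adjustment in limma or the methods' t-test. At an unadjusted p under 0.05, 0, 1 and 1 of these were higher. Of 9 tested fibroblast markers, 8 had lower means, with a median of -0.47, 2 of them at an unadjusted p under 0.05 and none after adjustment in either test. Their summed signal was 579707, 737369 and 555675 on the Ntep-labelled arrays and 859154, 891111.5 and 808082 on the control-labelled arrays. The part of these markers in the members' differences was not tested. In such bulk RNA, fewer cells of a type and less RNA per cell cannot be told apart.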

How the data were processed

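According to the submitters' processing notes, the authors scanned the arrays in 1 colour and took spot intensities from Agilent Feature Extraction 10.7.3.1, with local background removed and no scaling across arrays. A second deposited file holds their quantile normalised intensities and serves as an alternative. For this report, replicate spots were averaged, arrays were quantile normalised and a floor of 20 was applied. Probes with a mean of 50 or more under either label were then fitted on the log2 scale without pairing. Files were read with the data.table package (version 1.17.8), and the fit used limma 3.58.1 in R 4.3.3. All p-values are two-sided, and those called adjusted were adjusted by Benjamini-Hochberg over all probes tested in the setting. With the mean over a gene's probes, the adjustment was over the 25870 averaged entries. Each label has 3 arrays from 3 experiments, and this number limits the precision. Of 55681 probes, 55484 were within 0.05 (log2) of the authors' values on all arrays.

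Residuals of same-numbered arrays correlated at 0.466, 0.300 and 0.254. The numbers, paired in the study's supplementary documentation, therefore pair the arrays, and blocks by experiment were added as an alternative.

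The brightest tested probe stood for a gene unless both are given. RefSeq accessions and symbols (GRCm38.p6) named 31239 probes; probe coordinates are mm9, and promoter coordinates are GRCm38.p6. Members and lists were chosen with earlier results of these data known. Named genes are the members, the genes of the pathway lists, Ntep and the 10 genes nearest to the members' median profile; exceptions are stated where they occur. The fitting steps were tested on simulated data. No protein sequences were used here. Some genes of the lists are not reported here.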

Additional observations from a re-analysis of the deposited data

How the results depend on the processing

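Over 17 alternatives, 6 of which leave out 1 array, the median over the members stayed between -1.70 and -0.89. With 75th percentile scaling the median of all tested probes moved from 0.06 to 0.20 and that of the members to -1.29. The cause of the changes below was not tested. The count of tested probes lower after adjustment was 183 without a filter on dim probes, 1857 with the replicate block and 98 in the methods' t-test (901 before adjustment). Members lower at the unadjusted limit numbered 1 without the filter (1143 of all tested probes), 5 with the replicate block (2081) and 1 in the methods' t-test. After adjustment they numbered 3 with normexp (905 of all tested probes), 2 with a floor of 50 (1051), 2 with probes well above background on at least 3 arrays (1167), 5 with the replicate block, 0 in the methods' t-test, 3 with trend (1265) and 2 with the mean over a gene's probes, where probes were not counted. Other Oas1 genes numbered 1 with normexp at either limit, and 0 after adjustment without the filter and in the methods' t-test. For 2-5A turnover, the count at the unadjusted limit was 0 with normexp, in the methods' t-test and with the mean over probes. After adjustment it was 1 with probes well above background on at least 3 arrays, with the replicate block and with trend. Other sensors numbered 0 after adjustment without the filter and in the methods' t-test, and 7 with trend. Interferon signalling genes numbered 1 after adjustment without the filter, 6 with the replicate block and 1 in the methods' t-test, which gave 2 before adjustment. Apart from the calls of single genes given in the results, the replicate block changed no other call of a listed gene outside the members.

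Leaving out 1 array, the tested probes numbered 986 to 1919 at the unadjusted limit and 0 to 920 after adjustment, and the members 1 to 3 and 0 to 2. Other Oas1 genes numbered 0 to 2 after adjustment, 2-5A turnover 0 to 1 at either limit, other sensors 0 to 5 after adjustment, and interferon signalling genes 2 to 5 and 0 to 4. The Ntep probe differed by -1.09 to 0.13, with the change of sign without GapmeR Ntep replicate 2. Single genes changed sign in 7 cases, all near 0: with 75th percentile scaling Ifnar2 (0.0154) and Jak1 (0.0881), with the mean over probes Ifnar1 (0.0602), and with 1 array left out Ifnar1 (-0.2927 to 0.1965) and Ifnar2 (-0.1813 to 0.0987). Of the members, Oas1b moved to -0.01 with 75th percentile scaling and to -1.07 with the mean over probes, and Oas1g to -1.31 with normexp and to -2.38 with a floor of 50. Over the named pathway genes outside the members and all alternatives, 74 calls at an adjusted p of 0.05 were lost and 31 gained. Signal over background limits Oas1g and Tlr3 on the Ntep-labelled arrays.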
